A study of Drosophila melanogaster with 10 samples.

Results

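Transcript levels of heat shock and chaperonin genes were compared between testes of wild-type *Drosophila* and testes of homozygous *tbrd-1* mutants. The genes were chosen by symbol. Taken were the numbered Hsp genes, the Hsc70 genes, the CCT subunits, the genes named DnaJ, *Droj2*, *Hsc20*, *l(2)efl*, *Gp93*, *Trap1* and *Hsf*, as far as a probe set was paired with that gene alone. This gave 29 of the 11982 genes with a probe set of their own. A gene with several probe sets was represented by the brightest one over all 10 arrays, which concerned *Hsc70-1* and *l(2)efl*. Of 41 genes that fit the symbols, 12 were not analysed here. The heat-inducible *Hsp70Aa*, *Hsp70Ab*, *Hsp70Ba*, *Hsp70Bb*, *Hsp70Bbb* and *Hsp70Bc* belong to these, together with *Hsp22* and *DnaJ-60*, because their probe sets are paired with several genes. *Hsp23*, *Hsp67Ba*, *Hsp67Bc* and *Hsp83* are paired with no probe set in the annotation used.

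The wild-type group was the strain w1118 and the mutant group carried the genotype tbrd-11/tbrd-11, in both cases with 5 Affymetrix Drosophila Genome 2.0 arrays. *tbrd-1* encodes a bromodomain protein of primary spermatocytes, and the mutant allele arose by insertion of a P-element that bears the *white* gene. Males were 0 to 2 days old and stocks were kept at 25 °C, with no heat treatment stated. Every array received its own RNA from whole testes of 25 animals, so that germ cells and the somatic cells of the testis were measured together. In such bulk samples fewer cells of a type and less RNA per cell cannot be told apart. The rest of the genome may differ between the strains, and its part and that of the allele cannot be told apart either.

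Chaperones help other proteins to fold, and their large families share the work by compartment. Hsp70 proteins bind short unfolded stretches with the help of J proteins, Hsp90 proteins take over later folding steps, and small heat shock proteins hold unfolded chains without using ATP. Chaperonins are closed barrels, built from Hsp60 in mitochondria and from the CCT subunits in the cytosol, where CCT folds actin and tubulin. Stress-inducible members are switched on by the heat shock factor Hsf, whereas the cognate forms (Hsc) are made all the time. Spermatogenesis relies on members of its own, such as the Hsp60 paralogue *Hsp60B*, which is needed when spermatids become individual cells.

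*tbrd-1* itself had a signal intensity of 630 to 975 on the wild-type arrays and of 10 to 16 on the mutant arrays, which fits the labels. Markers of spermatocytes and spermatids gave bright signals, with a mean log2 value of 18 genes of 11.56 to 11.76 for wild-type and 11.74 to 11.86 for the mutant. Cyst and hub cell markers, 6 of 7 measured, lay between 5.71 and 6.11 and between 5.73 and 5.96, and germline stem cell and spermatogonium markers, 5 of 6 measured, between 6.45 and 6.77 and between 6.59 and 6.94. RNA of neighbouring tissue was present as well. The 13 accessory gland genes had a mean log2 signal of 12.96 to 13.19. Among arrays, 28 gut enzyme genes ranged from 4.98 to 8.80 and 3 ejaculatory bulb genes from 7.27 to 12.83, with bright and dim arrays in both genotypes. The mean over muscle markers, 12 of 16 measured, was 8.64 to 8.90 in wild-type against 8.23 to 8.61 in the mutant, and that over 7 fat body markers was 6.46 to 6.75 against 6.11 to 6.35. Among the fat body markers 1 was lower and 1 higher, with a median log2-fold change of 0.16, opposite in sign to the shift of the mean.

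None of the 29 genes was up- or down-regulated by the rule of the study, which asks for an adjusted p ≤ 0.05 (here from limma) and an absolute change of at least 1 on the log2 scale. Of all 18769 probe sets, 2.36% met this rule as down-regulated and 1.18% as up-regulated. At an unadjusted p under 0.05 from limma 12 of the 29 genes differed, where 46.4% of all probe sets did. The methods' t-test with the same thresholds gave 0 in either direction too. Without the fold minimum 5 genes were higher in the mutant and 3 were lower. The background was 21.6% higher and 14.7% lower of all probe sets, so neither count stood above it. Higher were *Hsp26*, *Trap1*, *Hsp68*, *Hsp27* and *Gp93*, and lower were *Hsp60D*, *Hsf* and *DnaJ-H*. In 2 genes all mutant arrays lay above all wild-type arrays, against 13.6% of all probe sets, and in 3 genes they all lay below, against 10.3%.

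None of the 29 genes was among the dim probe sets, and their mean log2 signals lay between 7.56 and 13.06. With the probe sets of a mean log2 signal below 4.76 left out, 12513 probe sets were tested, and 25.6% of them were higher and 21% lower. In that fit 6 of the 29 genes were higher and 4 lower, as *CCT8* (adjusted p = 0.041) and *Hsc70-5* (adjusted p = 0.044) passed in addition. The log2-fold changes, here always mutant minus wild-type, ranged from -0.53 to 0.36 with a median of -0.05, and their median absolute size was 0.125. Over all probe sets the median was 0.07 and the median absolute size 0.177, and 13.1% of probe sets moved at least as much as *Hsp60D*, the gene with the largest difference. Every 95% interval of the 29 genes lay between -0.71 and 0.51, which is inside the limits of -1 and 1. Replicates were close, with a median SD of 0.106 on the log2 scale in wild-type and of 0.095 in the mutant.

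**Figure D1:**
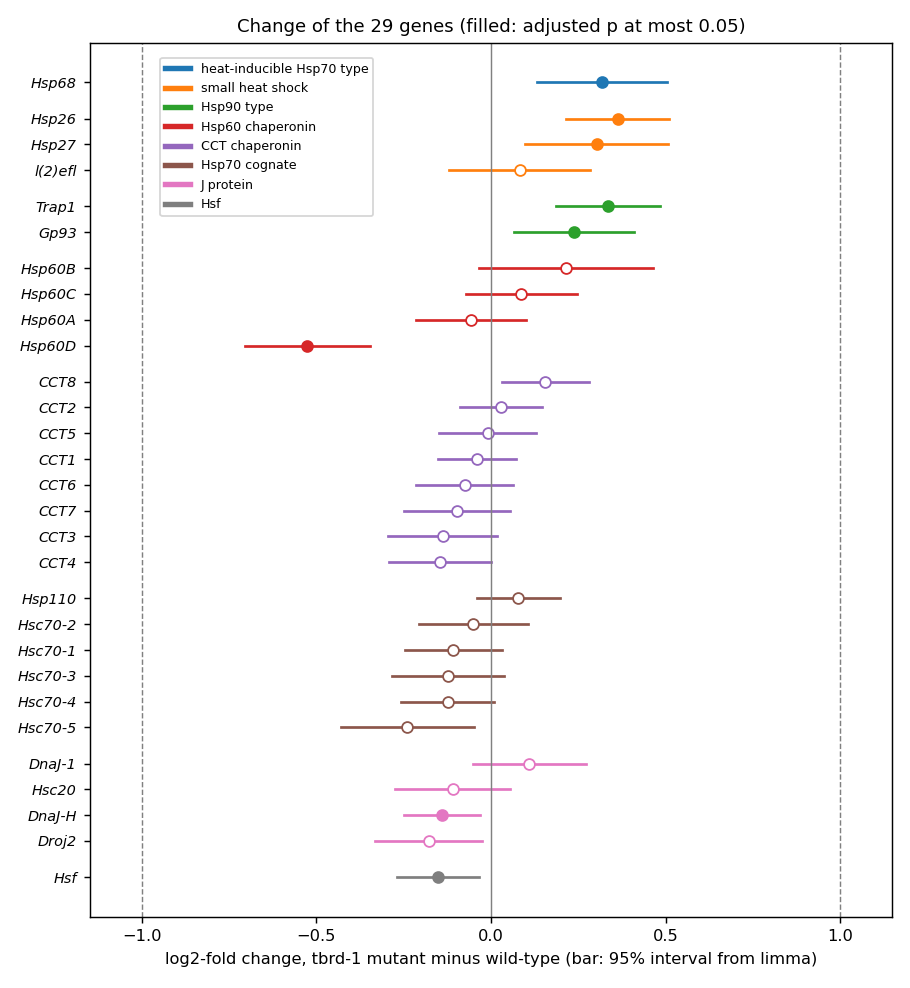
Log2-fold change of each of the 29 genes in *tbrd-1* mutant against wild-type testes, with its 95% interval from limma over 5 arrays per genotype, coloured by chaperone class. Dashed lines mark log2-fold changes of -1 and 1, which no interval reaches, and filled points mark the 8 genes with an adjusted p of at most 0.05, 5 to the right of 0 and 3 to the left.

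The RMA values were used as deposited. Centring each array on its median would add 0.104 to every log2-fold change, because the mutant arrays had lower medians (68 to 71) than the wild-type arrays (70 to 78). The 8 genes named above kept their signs under this scaling. *CCT1*, *CCT5*, *CCT6*, *CCT7*, *Hsc70-2* and *Hsp60A*, none of which passed the test, turned from negative to positive. Counted over the 29 genes, 17 log2-fold changes were negative and 12 positive as deposited, against 11 and 18 after median centring. Scaling on 37 ribosomal protein probe sets moved all values by only -0.01 and gave 17 and 12 again.

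Of the 3 measured small heat shock genes, *Hsp26* and *Hsp27* were higher in the mutant and *l(2)efl* did not pass. Of the heat-inducible genes outside this class, *Hsp68* was higher and the J protein gene *DnaJ-1*, a member of another class, did not pass. These counts stand beside 21.6% of all probe sets that were higher, and the genes are too few to set them apart as a group. *Hsp26* encodes a small heat shock protein that is also made in germ cells without heat. Its signal intensity was 3891, 4178, 3400, 3670 and 4033 on the 5 wild-type arrays and 5337, 4795, 4983, 4731 and 4764 on the 5 mutant arrays. No mutant array fell into the wild-type range. The mean rose from 3834 ± 307 (SD, n = 5) to 4922 ± 252, which is 1.29-fold. The log2-fold change was 0.36 (SE 0.07, adjusted p = 0.0015 from limma). The exact permutation test gave an unadjusted p = 0.00794, the smallest that 5 against 5 arrays allow. Every gene without overlap between the genotypes has this value, here and below, so it only restates the lack of overlap. Of all probe sets, 13.6% lay wholly above and 10.3% wholly below in the mutant. For the called genes with overlap, the exact permutation test gave p = 0.0159 (*Hsp68*) and p = 0.0238 (*Hsp27* and *Gp93*), also unadjusted.

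*Hsp27* encodes another small heat shock protein and lies near *Hsp26* on chromosome arm 3L, with 3 genes between them in the gene table. It gave 2428, 3105, 2356, 2655 and 2440 in wild-type against 3773, 3122, 3190, 2898 and 3015 in the mutant. Wild-type replicate 2 reached into the mutant range, while the other wild-type arrays lay below it. The means were 2597 ± 305 and 3200 ± 339 (log2-fold change 0.30, SE 0.09, adjusted p = 0.026 from limma). This call was lost without mutant replicate 1 (adjusted p = 0.059), without wild-type replicate 1 (0.062) and without wild-type replicate 3 (0.058). Within an array, the log2 difference between *Hsp26* and *Hsp27* was 0.43 to 0.72 in wild-type and 0.50 to 0.71 in the mutant, so both moved by similar amounts and the groups overlapped.

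*Hsp68*, a heat-inducible member of the Hsp70 type, was measured at 710, 646, 570, 651 and 580 in wild-type and at 848, 877, 682, 755 and 775 in the mutant. Mutant replicate 3 lay below the brightest wild-type array, and the remaining mutant arrays lay above all wild-type arrays. The mean rose 1.25-fold from 631 ± 57.4 to 787 ± 77.5 (log2-fold change 0.32, SE 0.08, adjusted p = 0.013 from limma). *l(2)efl*, which encodes a relative of alphaB-crystallin, had 1351 to 1729 in wild-type with a mean of 1539 ± 140 and 1402 to 1844 in the mutant with a mean of 1634 ± 192. Its log2-fold change of 0.08 did not pass (adjusted p = 0.50 from limma), nor did that of its second brightest probe set with 615 ± 70.3 against 715 ± 93 (log2-fold change 0.21, adjusted p = 0.13). A dim further probe set of *l(2)efl* had the opposite sign, with -0.07 (adjusted p = 0.56). Signals of neighbouring tissue varied between the same arrays. The summed intensity of 28 of 35 gut enzyme genes was 1132 to 32750 in wild-type and 1228 to 9607 in the mutant, and that of 3 ejaculatory bulb genes was 2595 to 23201 and 1412 to 25080. When wild-type replicates 1, 3 and 4 and mutant replicate 3, all bright in gut enzymes, were left out, *Hsp26* had a log2-fold change of 0.26 (adjusted p = 0.067) and *Hsp27* of 0.21 (adjusted p = 0.37). Bright in ejaculatory bulb genes were replicates 2 and 3 of wild-type and 2, 4 and 5 of the mutant, and without them *Hsp27* had 0.47 (adjusted p = 0.052; 0.086 with both tissue signals as covariates) and *Hsp68* had 0.24 (adjusted p = 0.32).

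The 2 measured Hsp90-type genes were higher in the mutant, as were 21.6% of all probe sets. *Trap1* encodes the Hsp90 of mitochondria. The wild-type arrays gave 1250, 1159, 1239, 1249 and 1179, and the mutant arrays gave 1474, 1747, 1406, 1438 and 1616. Wild-type values were tightly grouped, and every mutant array lay above them. Its mean rose 1.26-fold from 1215 ± 43 to 1536 ± 143 (log2-fold change 0.33, SE 0.07, adjusted p = 0.0028 from limma; exact permutation p = 0.00794). Leaving out the arrays bright in ejaculatory bulb genes gave 0.23 (adjusted p = 0.11), the single alternative in which *Trap1* did not pass.

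*Gp93*, the Hsp90 of the endoplasmic reticulum, had 3856, 3411, 4279, 3374 and 3745 in wild-type and 4328, 4093, 4518, 4149 and 4882 in the mutant. Wild-type replicate 3 lay inside the mutant range. Its means were 3733 ± 369 and 4394 ± 320 (log2-fold change 0.24, SE 0.08, adjusted p = 0.035 from limma). The call was lost without mutant replicates 1 (adjusted p = 0.062), 3 (0.069) or 5 (0.084) and without wild-type replicates 1 (0.052), 2 (0.077) or 4 (0.081), as well as without the arrays bright in gut enzymes (0.092) or in ejaculatory bulb genes (0.12).

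**Figure D2:**
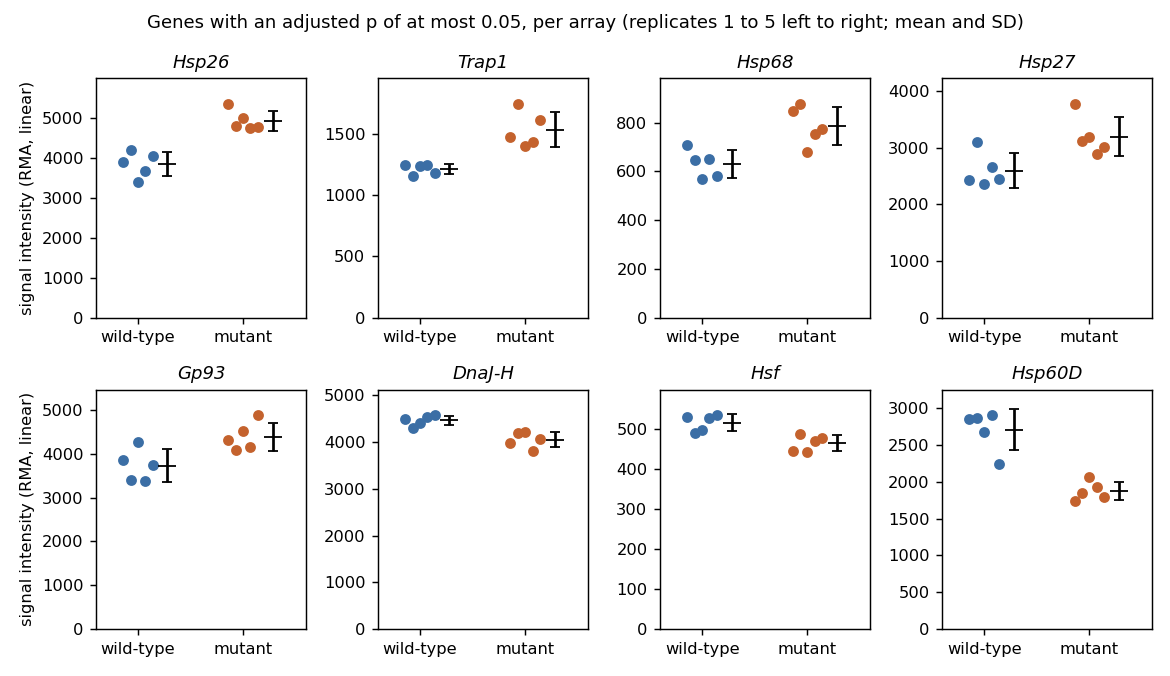
Signal intensity (RMA, linear scale from 0) on each of the 5 wild-type and 5 mutant arrays for the 8 genes with an adjusted p of at most 0.05, with the mean and SD of each genotype beside the points. The genotypes do not overlap for *Hsp26*, *Trap1*, *DnaJ-H*, *Hsf* and *Hsp60D*, whereas 1 or more arrays overlap for *Hsp68*, *Hsp27* and *Gp93*.

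The 4 mitochondrial-type Hsp60 genes did not move together. *Hsp60D*, a paralogue of the general *Hsp60A*, had the largest difference of the 29 genes. It gave 2850, 2872, 2679, 2903 and 2239 in wild-type against 1735, 1854, 2059, 1932 and 1796 in the mutant. All mutant arrays lay below all wild-type arrays, although wild-type replicate 5 was clearly lower than the other wild-type arrays. The mean fell from 2709 ± 277 to 1875 ± 126, or to 0.69 of the wild-type level (log2-fold change -0.53, SE 0.08, adjusted p = 0.00045 from limma; exact permutation p = 0.00794). Its call was lost only without the arrays bright in ejaculatory bulb genes, where the log2-fold change was -0.49 (adjusted p = 0.11).

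*Hsp60B*, with its role in spermatid individualization, had 5125, 4701, 5229, 5292 and 3557 in wild-type and 5062, 6239, 5347, 5016 and 5886 in the mutant. Its log2-fold change of 0.21 had a 95% interval of -0.03 to 0.46 and did not pass the test (adjusted p = 0.16 from limma). *Hsp60C*, which is needed early in spermatogenesis and in the tracheal system, had means of 8299 ± 581 and 8821 ± 720 (log2-fold change 0.09, adjusted p = 0.37), and *Hsp60A*, the general mitochondrial chaperonin, had 2059 ± 115 and 1983 ± 182 (log2-fold change -0.06, adjusted p = 0.55). After median centring *Hsp60B* passed with 0.32 (adjusted p = 0.024), and it passed with gut and ejaculatory bulb signals as covariates with 0.30 (adjusted p = 0.046). Within single arrays, where scaling has no part, the log2 signal of *Hsp60D* minus the mean of *Hsp60A*, *Hsp60B* and *Hsp60C* was -0.77 to -0.54 in wild-type and -1.49 to -1.07 in the mutant, a shift of -0.61. With *Hsp60B* and *Hsp60C* alone as the reference the shift was -0.68.

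*Hsp10*, today *CG11267*, encodes the lid of the Hsp60 barrel. It lies outside the symbols that chose the 29 genes, and its signal was lower in the mutant. The wild-type arrays had 1987, 2053, 2318, 1803 and 2143 and the mutant arrays 1760, 1689, 1705, 1728 and 1691, with no overlap. The means were 2061 ± 190 and 1715 ± 29.8 (log2-fold change -0.26, SE 0.07, adjusted p = 0.011 from limma).

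Some arrays stood at the end of their genotype for several of these genes. Wild-type replicate 5 was the lowest wild-type array for *Hsp60B* (3557), *Hsp60C* (7285), *Hsp60D* (2239) and the mitochondrial Hsp70 gene *Hsc70-5* (1615). *Hsp60A* did not follow, with 2117 on that array and its lowest wild-type value of 1867 on replicate 2. Mutant replicate 2 was the highest mutant array for *Hsp60A* (2285), *Hsp60B* (6239), *Hsp60C* (9856) and *Hsc70-5* (1867), but not for *Hsp60D*. Over all 29 genes, mutant replicate 3 was the lowest of the mutant arrays 12 times and mutant replicate 2 the highest 13 times.

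**Figure D3:**
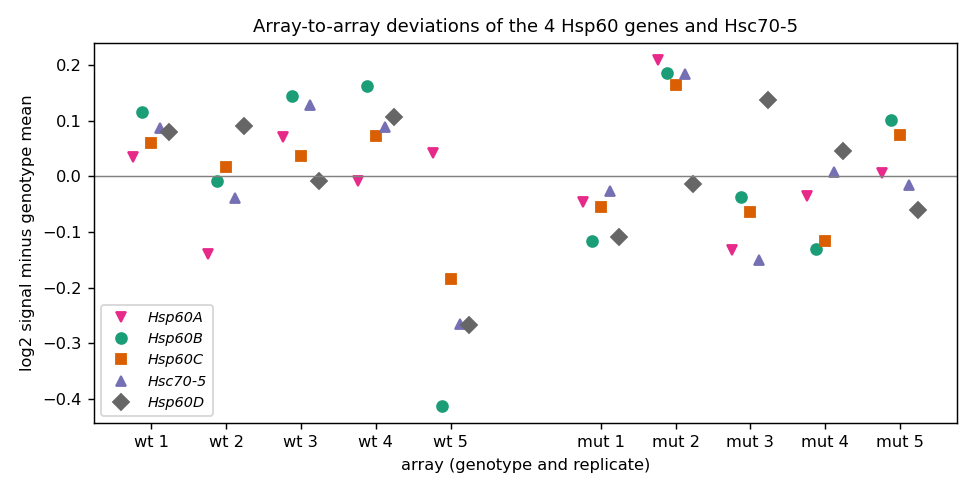
Log2 signal of *Hsp60A*, *Hsp60B*, *Hsp60C*, *Hsc70-5* and *Hsp60D* on each array minus the mean of its genotype, for the 5 wild-type and 5 mutant arrays. All but *Hsp60A* lie lowest of the wild-type arrays on wild-type replicate 5, and all but *Hsp60D* lie highest of the mutant arrays on mutant replicate 2.

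The 8 subunits of the cytosolic chaperonin CCT differed little. None passed the test in either direction, where 21.6% of all probe sets were higher and 14.7% lower. An unadjusted p under 0.05 from limma was found for 2 (*CCT4* and *CCT8*), beside 46.4% of all probe sets. With 8 genes these counts are too small for a comparison with the shares. The log2-fold changes ran from -0.15 for *CCT4* to 0.16 for *CCT8*. The median was -0.06, with 6 negative and 2 positive values, which became 2 negative and 6 positive after median centring. All 95% intervals of the subunits lay between -0.29 and 0.28. *CCT8* stood at the upper end, with 1046, 1128, 1102, 1011 and 1191 in wild-type and 1251, 1253, 1212, 1211 and 1166 in the mutant, where only wild-type replicate 5 reached into the mutant range. Its means of 1096 ± 70.4 and 1219 ± 35.7 gave an adjusted p of 0.053 from limma. This became 0.020 without wild-type replicate 5, 0.032 with the methods' t-test and 0.016 after median centring. *CCT8* passed in 5 of 21 alternatives. Without the arrays bright in gut enzymes its log2-fold change was 0.07 (adjusted p = 0.53). It was 0.19 (0.27) without those bright in ejaculatory bulb genes and 0.12 (0.20) with both signals as covariates. Against the mean of the other 7 subunits on the same array, the log2 signal of *CCT8* was 0.15 to 0.28 in wild-type and 0.39 to 0.51 in the mutant. *CCT4* gave 949 ± 81.7 and 856 ± 35.6 (adjusted p = 0.11), and passed in 2 of 21 alternatives. These were the fit without the arrays bright in gut enzymes (log2-fold change -0.26, adjusted p = 0.042) and that with gut and ejaculatory bulb signals as covariates (-0.22, adjusted p = 0.024). After median centring it had -0.04 (adjusted p = 0.69), and without the arrays bright in ejaculatory bulb genes -0.135 (0.46).

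The 6 cognate genes of the Hsp70 group had a median log2-fold change of -0.12, 5 negative values and 1 positive, and none passed the test. Of all probe sets 14.7% were lower and 21.6% higher, and 6 genes are few for such a comparison. After median centring 4 were negative and 2 positive. *Hsc70-5*, the mitochondrial Hsp70, came closest to the threshold. Its signal was 2062, 1890, 2121, 2065 and 1615 in wild-type and 1615, 1867, 1482, 1653 and 1626 in the mutant. Without wild-type replicate 5 the genotypes would not overlap, but with it the log2-fold change was -0.24 (SE 0.09, adjusted p = 0.051 from limma). With wild-type replicate 5 left out the adjusted p was 0.0075, and with mutant replicate 2 left out it was 0.029. *Hsc70-5* passed in 5 of 21 alternatives. Dropping the gut-bright arrays shrank its log2-fold change to -0.05 (adjusted p = 0.78), and median centring gave -0.136 (0.17). Dropping the bulb-bright arrays gave -0.298 (0.23), and the model with gut and bulb covariates gave -0.20 (0.10). *Hsc70-3*, the BiP of the endoplasmic reticulum, had 6325 ± 530 and 5798 ± 418 (log2-fold change -0.12, adjusted p = 0.20). *Hsc70-4*, the main cytosolic cognate, had 7437 ± 450 and 6820 ± 366 (log2-fold change -0.12, adjusted p = 0.13), and *Hsp110*, a nucleotide exchange factor for Hsp70, had the single positive value of 0.08 (adjusted p = 0.28).

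*Hsc70-1* depended on the probe set. Its brightest one fell short of the threshold, with 2264 ± 138 against 2101 ± 136 (log2-fold change -0.11, adjusted p = 0.20 from limma). The second gave 476, 621, 498, 620 and 644 in wild-type and 471, 390, 443, 371 and 497 in the mutant, with a log2-fold change of -0.39 and an adjusted p of 0.017. A dim further one had -0.17 (adjusted p = 0.17). The genotypes overlapped for all of them, and *Hsc70-1* was counted by its brightest probe set.

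Of the 4 J proteins, which stimulate Hsp70, *DnaJ-H* was lower in the mutant, where 14.7% of all probe sets were lower. Its signal of 4487, 4310, 4419, 4534 and 4572 in wild-type and 3977, 4194, 4221, 3810 and 4074 in the mutant did not overlap. The difference was small, 4464 ± 103 against 4055 ± 168 (log2-fold change -0.14, SE 0.05, adjusted p = 0.046 from limma; exact permutation p = 0.00794). *Droj2*, a cytosolic J protein gene, had the most negative value of the class, with 5604 ± 462 and 4945 ± 305 (log2-fold change -0.18, adjusted p = 0.065). *DnaJ-1*, a heat-inducible J protein gene, had the highest value, with 3383 ± 166 and 3662 ± 360 (log2-fold change 0.11, adjusted p = 0.26), and *Hsc20*, a co-chaperone of iron-sulfur cluster assembly, had -0.11 (adjusted p = 0.27). *Droj2* passed when wild-type replicate 5 (adjusted p = 0.027) or mutant replicate 2 (0.039) was left out. *DnaJ-H* stayed past the threshold without mutant replicate 3 but no longer passed when any other array was left out, namely wild-type replicates 1 (adjusted p = 0.089), 2 (0.052), 3 (0.066), 4 (0.085) and 5 (0.066) or mutant replicates 1 (0.096), 2 (0.051), 4 (0.089) and 5 (0.079), and median centring reduced it to -0.04 (adjusted p = 0.65). Further losses came with ribosomal scaling (0.095), with the tissue signals as covariates (0.16) and when arrays bright in gut enzymes (0.22) or in ejaculatory bulb genes (0.24) were left out.

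*Hsf*, the transcription factor of the heat shock response, was slightly lower in the mutant. It had 529, 488, 497, 527 and 533 in wild-type and 443, 486, 442, 469 and 477 in the mutant, where the highest mutant array lay just below the lowest wild-type array. The means were 515 ± 20.7 and 463 ± 20 (log2-fold change -0.15, SE 0.05, adjusted p = 0.043 from limma; exact permutation p = 0.00794). The call was lost without wild-type replicates 1 (adjusted p = 0.096), 4 (0.085) or 5 (0.067), without mutant replicates 1 (0.10), 3 (0.092), 4 (0.058) or 5 (0.059), and after median centring, where the log2-fold change was -0.05 (adjusted p = 0.57). It was also lost with ribosomal scaling (0.075), with a variance trend and robust prior (0.070), with gut and ejaculatory bulb signals as covariates (0.099) and when arrays bright in gut enzymes (0.32) or in ejaculatory bulb genes (0.069) were left out.

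Partners of 1 compartment were also set against each other within each array. These pairs, and those of *Hsp60D* and *CCT8* above, were chosen after their values were seen and therefore have no test. In mitochondria, the log2 signal of *Trap1* minus that of *Hsc70-5* was -0.78 to -0.45 in wild-type and -0.20 to -0.01 in the mutant, and *Trap1* minus *Hsp60A* was -0.84 to -0.69 and -0.42 to -0.30. In the endoplasmic reticulum, *Gp93* minus *Hsc70-3* was -0.89 to -0.61 and -0.49 to -0.34. None of these overlapped between the genotypes, which the choice of pairs favoured, and nothing about the compartments is read from them. Only the shifts between genotypes can be read from these differences, since each probe set has a brightness of its own.

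**Figure D4:**
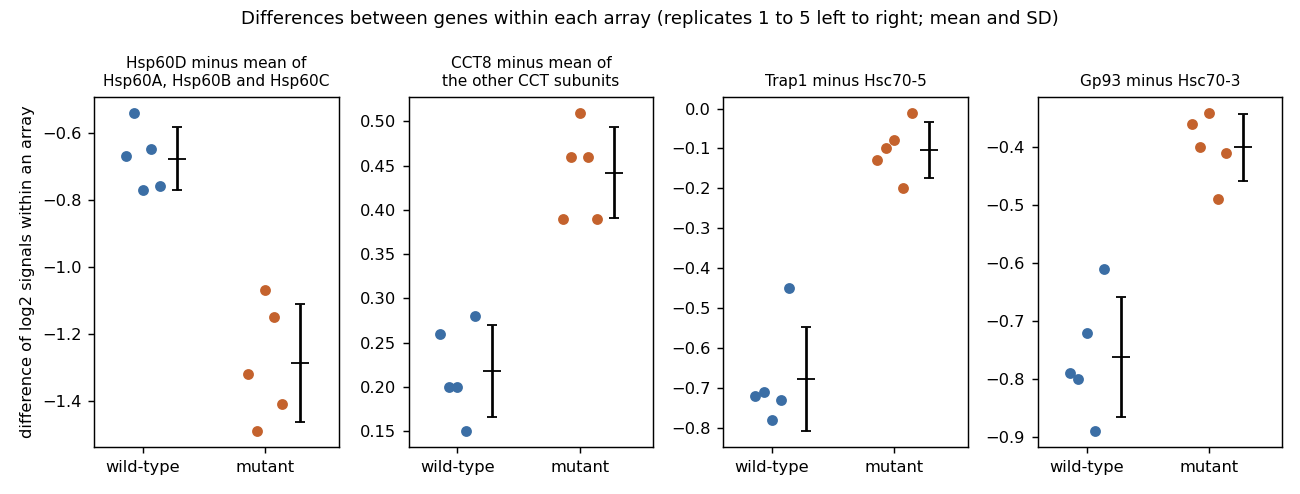
Difference of log2 signals between genes on the same array, for the 5 wild-type and 5 mutant arrays, with the mean and SD of each genotype; each panel has its own vertical axis, none of which has to start at 0. *Hsp60D* minus the mean of the other 3 Hsp60 genes shifts by -0.61, and *CCT8* against the other subunits, *Trap1* against *Hsc70-5* and *Gp93* against *Hsc70-3* shift by 0.22, 0.57 and 0.36, with no overlap between the genotypes in these comparisons, which were chosen after their values were seen.

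Co-chaperones and other folding genes outside the 29 were taken from 4 lists, in which 36 of 40 genes were measured. Of these, 8 were lower, 7 were higher and 21 did not pass, with a median log2-fold change of 0.04, beside 14.7% lower and 21.6% higher among all probe sets and a median of 0.07. Only *Pdi* of these genes was among the dim probe sets. In the fit without dim probe sets 21% were lower and 25.6% higher, which is the closer background. In 17 co-chaperone genes 4 were lower and 3 higher. The gene with the largest difference was *stv*, which encodes a BAG domain partner of Hsp70, with 365, 365, 341, 333 and 297 in wild-type and 227, 155, 274, 219 and 226 in the mutant (log2-fold change -0.65, SE 0.13, adjusted p = 0.0026 from limma). *unc-45*, a myosin chaperone, fell from 135 ± 6.89 to 88 ± 4.85 (log2-fold change -0.62, adjusted p = 1.2e-05). Both are known from muscle, and muscle markers were lower on the mutant arrays as well, with 5 of 12 lower, none higher, a median of -0.37 and a summed intensity of 9678 to 11858 in wild-type against 7883 to 9335 in the mutant. The part of muscle RNA in these results was not tested. *Fkbp59*, an immunophilin that works with Hsp90, rose from 1180 ± 106 to 1635 ± 72.5 (log2-fold change 0.47, adjusted p = 0.00032) with no overlap. The other genes that passed, named after their values were seen, were the J protein genes *mrj* (-0.47) and *Tpr2* (-0.32), *Cdc37* (0.21), which brings kinases to Hsp90, and *Sec63* (0.24), a J protein of the endoplasmic reticulum.

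Prefoldin hands actin and tubulin chains to CCT. Of the 8 genes on the prefoldin list, not all of them prefoldin subunits, 2 were higher and none lower, close to the 21.6% of all probe sets that were higher. *mgr* had 920, 965, 902, 893 and 1120 in wild-type and 1361, 1275, 1322, 1300 and 1289 in the mutant (log2-fold change 0.45, SE 0.07, adjusted p = 0.00035 from limma), and *Pfdn1* rose from 1449 ± 184 to 1791 ± 134 (0.31, adjusted p = 0.022). Neither overlapped between genotypes, and the median of the 8 was 0.11.

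In the endoplasmic reticulum, 6 of 8 folding genes of the list were measured. *Cnx14D*, a homologue of the lectin chaperone calnexin, was the single gene of the 4 lists that was up-regulated past the fold minimum. Of all probe sets 1.18% were, so 1 of 36 measured genes does not set the lists apart. Its signal was 98, 118, 87, 99 and 58 in wild-type and 236, 232, 167, 158 and 179 in the mutant, which is 2.14-fold (log2-fold change 1.10, SE 0.18, adjusted p = 0.00079 from limma). *Pdi*, a disulfide isomerase gene, was lower (-0.30, adjusted p = 0.0027), but its probe set was dim, with 20.2 ± 0.837 and 16.4 ± 1.14. The related *Cnx99A* did not pass, with 2912 ± 191 and 2881 ± 244 (log2-fold change -0.02, adjusted p = 0.87).

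Among 5 mitochondrial quality control genes, 3 were lower and 1 higher, where 14.7% and 21.6% of all probe sets were. In the fit without dim probe sets these shares were 21% and 25.6%, and 5 genes are few for such a comparison. *ClpX*, the unfoldase of the Clp protease, had 873, 680, 782, 820 and 686 in wild-type and 457, 500, 548, 543 and 481 in the mutant, with no overlap (log2-fold change -0.60, SE 0.08, adjusted p = 0.00025 from limma). Its protease partner *ClpP* had 5984 ± 343 and 5254 ± 303 (log2-fold change -0.19, adjusted p = 0.032). Of the membrane proteases, *YME1L* was lower with 2193 ± 196 and 1743 ± 128 (-0.33, adjusted p = 0.007), whereas *Spg7* was higher with 650 ± 64.8 and 768 ± 61.6 (0.24, adjusted p = 0.039). *Lon* did not pass (0.02, adjusted p = 0.85).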

How the data were processed

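Testis RNA of 5 wild-type and 5 *tbrd-1* mutant samples was measured on Affymetrix Drosophila Genome 2.0 arrays. The authors deposited linear signal intensity values of 18952 probe sets, rounded to whole numbers, for which the submitters' processing notes name RMA and Affymetrix Expression Console with versions not given in the sources used here. RMA sets all arrays on a common distribution and tends to compress fold changes, and the deposited values hold no detection calls. Their number, 5 arrays per genotype, limits the precision.

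After removal of 183 control probe sets, log2 values of 18769 probe sets entered a linear model with genotype as the only term (lmFit, eBayes; limma 3.58.1, R 4.3.3), and p-values were adjusted after Benjamini and Hochberg over all of them. The thresholds were an adjusted p of 0.05 and, where stated, an absolute log2-fold change of 1. Exact permutation tests were two-sided (scipy 1.17.1), and Python 3.11.15 with matplotlib 3.10.9 served for plots. Calls were first tested on simulated data. Fold changes were differences of mean log2 values, and means ± SD are of intensities over 5 arrays.

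In the platform annotation 13647 probe sets have 1 gene, 402 have several and 4720 have none, and 13544 symbols were updated with the gene table for Release 6. The files name no assembly, so this table served only for names, arms and gene order. Of the probe sets of the 29 genes, 13 carry the suffix _s and 1 the suffix _a, which mark probes that can match more than 1 transcript. No 2 arrays were alike enough to be 1 hybridization deposited more than once.

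The genes and lists were chosen with earlier results of these data known. By rule, array values were given for genes that passed, up to 12, and other genes by class with the largest rise and fall of each, and up to 3 genes of each further list. Alternatives were the methods' t-test (a figure legend names a t-test and another limma), a variance trend with a robust prior, array weights, a filter on dim probe sets, median and ribosomal scaling, arithmetic means, a second probe set per gene, a replicate block, each array left out, arrays bright in gut or ejaculatory bulb genes left out, and those signals as covariates.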

Additional observations from a re-analysis of the deposited data

Results flagged for a closer look

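In 58 groups of 5 arrays, 29 genes in each genotype, the highest and lowest array were set against the other 4 with Dixon's test at the 95% level, and 3 groups held an array far from the rest. Chance alone flags about 1 in 20 groups, which is about as many. For *CCT2*, a subunit of the cytosolic chaperonin, wild-type replicate 2 was highest with 1439 where the other wild-type arrays had 1329 to 1350, and mutant replicate 3 was lowest with 1266 where the other mutant arrays had 1395 to 1427. For *Hsp60C*, wild-type replicate 5 was lowest with 7285 where the others had 8377 to 8707.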

How the results depend on the processing

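In all 21 alternatives none of the 29 genes passed with the fold minimum, and the largest absolute log2-fold change of any was 0.594. Without it, the 3 lower genes became 5 with array weights, 1 with median centring, ribosomal scaling or the replicate block, and 0 without the arrays bright in ejaculatory bulb genes. The 5 higher genes became 9 with median centring, 2 without the gut-bright arrays and 1 without those bright in ejaculatory bulb genes, which leaves 3 wild-type and 2 mutant arrays. Of all 18769 probe sets, 4052 were higher and 2751 lower in the fit described above. Higher were 6589 with median centring, 1826 without the gut-bright arrays and 1081 without the arrays bright in ejaculatory bulb genes. Lower were 3243 with array weights, 1879 with median centring, 2732 with ribosomal scaling, 2604 with the replicate block and 1115 without the arrays bright in ejaculatory bulb genes. Leaving out 1 array gave 1 to 4 lower and 3 to 6 higher genes, and 2338 to 2979 lower and 3178 to 4848 higher probe sets of all. The count of lower genes was 1 without wild-type replicates 1 or 4 or mutant replicates 1, 4 or 5, and the count of higher genes was 3 without wild-type or mutant replicate 1. *Hsp26*, *Hsp60D*, *Hsp68* and *Trap1* each passed in 20 of 21 alternatives, and no gene passed in every one. With arithmetic means the p-values were those of the fit described above, so no call without the fold minimum could change in that alternative. Of 611 single values, 524 kept sign and side of the threshold, 48 lost and 21 gained the call, and 18 that had not passed changed sign; the cause was not tested. Replicate numbers did not pair the arrays (correlations of deviations -0.315 to 0.482, and 1 of 10 arrays correlated best with its own number), and with the replicate block 1 gene was lower and 4 were higher, as *Hsf* (adjusted p = 0.094), *DnaJ-H* (0.11) and *Hsp27* (0.053) no longer passed.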
